A study of Mus musculus with 8 samples.

Results

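Genes named Zfp plus a number are mouse zinc finger genes, described here from lists of N6-methyladenosine (m6A) peaks of mouse embryonic fibroblasts (MEFs). The members were chosen by name alone, as every peak whose deposited gene name starts with Zfp followed by a digit. The rule found 267 genes with 1128 peaks, of 9779 genes and 38705 peaks in 4 lists. Peaks of different libraries that overlapped were merged, which gave 613 regions in Zfp genes of 21168 in all. The rule itself uses no value, but it was set with earlier results of these data known.

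The peaks come from MeRIP-seq, in which an m6A antibody enriches modified mRNA fragments (IP), and the enriched fragments are sequenced beside an input library made without it. The MEFs were primary cells from wild-type C57BL/6 embryos taken 13.5 days after conception and used at passage 5 to 6. Control cells were untreated and grown in full medium with serum, and starved cells were kept for 2 h in a nutrient-deprived medium. The 8 samples were 2 IP and 2 input libraries for each condition, and the authors called peaks separately for the 4 IP libraries, against the input of the same replicate. The labels do not say whether replicates came from separate cultures or embryos, so every test measures only the spread between these libraries. The lists held 8974 to 10103 peaks, the files give no reads, and the depth of the libraries is therefore unknown. Of 10 fibroblast markers 8 had a peak in at least 1 library. The counts were 2 of 4 epithelial, 1 of 3 endothelial, 1 of 3 blood and 1 of 3 pluripotency markers. A peak in all 4 libraries was found for 3 fibroblast markers and for Sox2, a pluripotency marker. A peak is no measure of how much of an mRNA a cell holds.

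Most Zfp proteins are transcription factors built from C2H2 zinc fingers, short domains in which cysteines and histidines hold a zinc ion and a helix reads DNA. The fingers usually stand in a row, the array, which a single long last exon encodes, and many of these proteins carry a KRAB domain before the array that recruits the co-repressor TRIM28 to retroelements and imprinted genes. A smaller class, Zfp36 and its relatives, has CCCH fingers that bind AU-rich elements of mRNA and bring in the decay machinery. The m6A mark is written by the METTL3 complex, mostly at adenosines in the core motif GGAC or the wider DRACH context (any base but C, a purine, AC, then any base but G), and is known to be dense in long exons and around stop codons.

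RefSeq models were found for 265 of the 267 genes. In 240 of them the protein held 3 or more C2H2 matches, with a median of 10 matches over all models and at most 36. Letters typical of the KRAB A box (F, then S or T, any residue, E, K, Q or D at each of the next positions, then W, any pair of residues and L) were found beside the fingers in 101 genes, and 139 genes had C2H2 matches without these letters. The remaining 25 genes with a model had under 3 matches. A gene without these letters may still encode a KRAB domain. Zfp708, named below among known KRAB genes, lacked them. Where sets are compared, KRAB genes are those with these letters. The genes were unevenly placed, with 68 on chromosome 7 (25.5% of Zfp genes, against 6.52% of the other genes with a peak) and 35 on chromosome 17 (13.1% against 4.55%). In the mouse genome 35 of the 613 regions (5.71%), from 27 genes, had a further copy at 95% identity over 90% of their length, so reads of these regions may be shared between paralogs. None of the 30 regions chosen below for their strength or their pattern between conditions was among them, and copies are given where another named region had them.

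The strongest regions found in every library show what an m6A peak in these genes covers. They are the 6 regions, among those called in each of the 4 lists, whose lowest fold enrichment was highest, each shown as 100 nt of coding sequence around the centre of the part that the 4 peaks share. The sequences are RefSeq GRCm38 (the assembly of mm10), read 5′ to 3′ on the transcript strand, with GGAC in capitals.
Zfp296, chr7:19580184-19580283, plus strand: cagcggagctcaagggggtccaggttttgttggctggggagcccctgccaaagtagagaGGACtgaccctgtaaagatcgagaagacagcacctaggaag
Zfp46, chr4:136290037-136290136, plus strand: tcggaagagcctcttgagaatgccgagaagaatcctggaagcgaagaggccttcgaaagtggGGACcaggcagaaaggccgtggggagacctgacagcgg
Zfp869, chr8:69707455-69707554, minus strand: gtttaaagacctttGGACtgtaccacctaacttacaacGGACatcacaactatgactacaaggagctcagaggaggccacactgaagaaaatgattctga
Zfp286, chr11:62780720-62780819, minus strand: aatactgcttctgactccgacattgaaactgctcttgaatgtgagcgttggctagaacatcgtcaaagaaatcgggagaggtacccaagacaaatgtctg
Zfp445, chr9:122853630-122853729, minus strand: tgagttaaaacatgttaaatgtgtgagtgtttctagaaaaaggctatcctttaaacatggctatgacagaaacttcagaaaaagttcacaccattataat
Zfp784, chr7:5036067-5036166, minus strand: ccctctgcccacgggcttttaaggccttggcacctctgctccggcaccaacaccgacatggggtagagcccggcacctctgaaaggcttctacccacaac

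GGAC stood in the windows of Zfp296, Zfp46 and Zfp869, where the last held 2 copies, and was not in the windows of Zfp286, Zfp445 and Zfp784. The wider DRACH context occurred 3 times in the window of Zfp296, 3 times in that of Zfp46, 5 times in that of Zfp869, 4 times each in those of Zfp286 and Zfp445, and 0 times in that of Zfp784. Both motifs were searched on the transcript strand only, GGAC being contained in part of the DRACH matches. For comparison, 32.9 ± 2.99% (SD, n = 4 libraries) of 100-nt windows centred on Zfp peaks held a GGAC, against 41.9 ± 0.814% of such windows in other genes. The difference of -8.92 ± 2.19 percentage points had the same sign in all 4 libraries (exact sign-flip permutation p = 0.125, two-sided). With 4 libraries this is the smallest p that the sign-flip test can give, and with 2 libraries against 2 the smallest is 0.333, so no test here could reach 0.05.

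Fold enrichment, the authors' ratio of IP reads to local input background, was high in all 4 libraries for these regions. Zfp296, a factor known from pluripotent cells and heterochromatin, had 259-fold and 223-fold enrichment in the control libraries and 399-fold and 127-fold in the starved ones. Zfp46 stood at 265, 329, 318 and 98.7 in control replicates 1 and 2 and starved replicates 1 and 2. Its lowest value, in starved replicate 2, was well below the other libraries. Zfp869 had folds of 307, 109, 97.8 and 96.3 in the same order, and here both control values lay above both starved ones. Zfp286 ranged most widely, with 634, 145, 91.6 and 298. Zfp445, a KRAB protein that guards genomic imprints together with Zfp57, had 162, 77.4, 80.4 and 77.8, so that 3 libraries stood close together and control replicate 1 above them. Zfp784 had 81.1, 76.4, 224 and 72.7, with starved replicate 1 alone far above the rest. In 4 of the 6 regions the centre lay in coding sequence before the finger array, and in Zfp296 and Zfp784 it lay within the array.

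**Figure D1:**
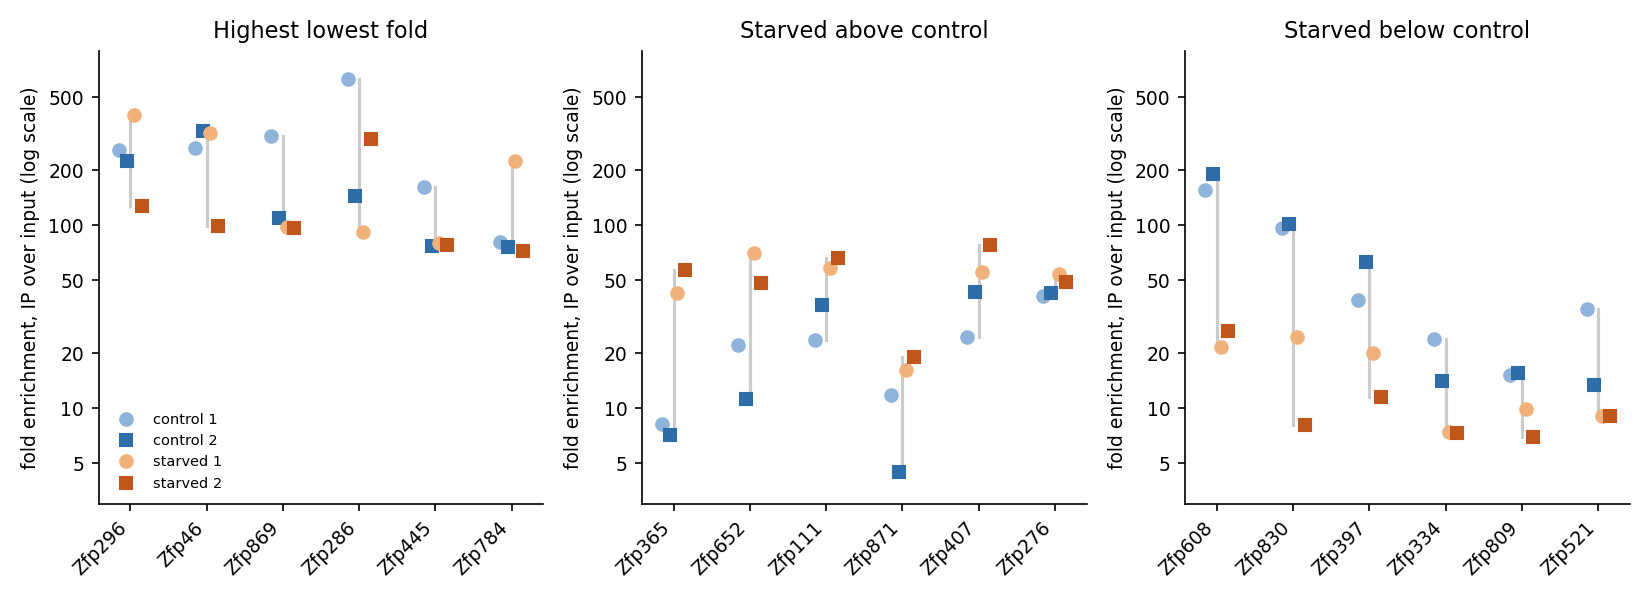
Fold enrichment (IP over input, log scale) in the 4 libraries for regions of Zfp genes with a peak in every library. Left, the 6 regions with the highest lowest value, which range from 72.7 to 634; middle and right, the 6 regions with the widest gap among the 10 with both starved values above and among the 13 with both below both control values, led by Zfp365 (8.24 and 7.15 in control, 42.6 and 57.1 in starved cells) and Zfp608 (155 and 192 in control, 21.6 and 26.4 in starved cells).

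Zfp genes took a nearly constant share of the peaks. They held 326 peaks in control replicate 1, 272 in control replicate 2, 278 in starved replicate 1 and 252 in starved replicate 2, which was 3.23%, 2.76%, 2.85% and 2.81% of the respective list. The starved mean was 0.162 percentage points below the control mean, within the spread of the control replicates (exact permutation p = 1, two-sided, n = 2 per group). Control replicate 1 alone stood apart, and without it the difference was 0.0731 points in the other direction. Among peaks with a deposited false discovery rate under 20% (the lowest in the lists is 5.56%) it was -0.374 points. The peaks lay in 182, 169, 168 and 155 genes. Of the 397 protein-coding Zfp genes in RefSeq, matched by gene ID, 267 had a peak in at least 1 library (67.3%), against 9342 of 21900 protein-coding genes in all (42.7%). These are 265 of the 267 members and 2 genes listed under another name, and the other 2 members carried no gene ID. Neither the 397 nor the 21900 genes were restricted to those expressed in MEFs, as the files give no expression level.

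A Zfp gene with a peak had slightly more of them than another gene. The mean was 1.79, 1.61, 1.65 and 1.63 peaks per gene in the 4 libraries, against 1.58, 1.60, 1.58 and 1.53 in the other genes. The difference was 0.0974 ± 0.0861 (SD, n = 4), higher in 4 of 4 libraries (exact sign-flip permutation p = 0.125). In control replicate 2 the sets nearly met, and without control replicate 1 the difference was 0.058. C2H2 genes without a Zfp name, 165 genes with 870 peaks, had more, at 1.96 ± 0.0491 peaks per gene, and Zfp genes with KRAB letters had fewer, at 1.48 ± 0.104. The gap between KRAB genes and C2H2 Zfp genes without KRAB letters was -0.280 ± 0.0855 (exact sign-flip permutation p = 0.125). It had the same sign in all 4 libraries.

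Most Zfp genes were seen with few regions and not in every library. A single region was found in 97 genes (36.3%), and the median was 2 regions per gene. Peaks occurred in all 4 libraries for 80 genes (29.96%) and in 1 library for 75 genes (28.1%), close to the 29.2% and 27.9% of the other genes.

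The peaks of Zfp genes were more strongly enriched than those of other genes. Their median fold enrichment was 18.6 in control replicate 1, 17.1 in control replicate 2, 21.7 in starved replicate 1 and 19.1 in starved replicate 2, against 12.04, 12.1, 14.3 and 14.6 for the peaks of all other genes. The Zfp value was thus higher in 4 of 4 libraries, by 0.53 ± 0.11 on the log2 scale, a ratio of medians of 1.45 ± 0.109 (SD, n = 4, exact sign-flip permutation p = 0.125). The score of the same peaks, which measures the evidence for a peak and not its height, gave no such order. Its medians for Zfp and other genes were 932 and 768 in control replicate 1, 595 and 573 in control replicate 2, 1239 and 1134 in starved replicate 1, and 855 and 1049 in starved replicate 2, where the Zfp value was the lower one. The files give no expression level, so fold enrichment could not be set beside the abundance of these mRNAs. Among peaks of at least 10-fold enrichment the log2 difference was 0.21.

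The higher fold was seen in coding sequence and in 3′ UTRs. In coding sequence the median was 19.5 ± 3.30 for 686 Zfp peaks and 15.8 ± 1.51 for other genes, a log2 difference of 0.30 ± 0.18. In 3′ UTRs it was 17.5 ± 1.89 for 345 Zfp peaks and 10.5 ± 1.20 for other genes, with a log2 difference of 0.74 ± 0.28. Both differences were positive in 4 of 4 libraries (exact sign-flip permutation p = 0.125 each). In 5′ UTRs, with 41 Zfp peaks, the difference was 0.52 ± 0.56 and positive in 3 of 4 libraries (exact sign-flip permutation p = 0.25). In exons of up to 500 nt, above that up to 2000 nt, above that up to 4000 nt and over 4000 nt, the log2 difference was 0.55, 0.48, 0.68 and 0.50, again positive in all libraries. Without the Zfp regions that had a further copy in the genome the difference was 0.50, with the peaks of other genes left unfiltered.

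KRAB genes accounted for the highest values. The 101 genes with KRAB letters had medians of 21.0 and 23.2 in the control and 25.6 and 22.6 in the starved libraries, from 76 to 104 peaks each. The 139 C2H2 Zfp genes without these letters stood at 17.9, 16.4, 20.4 and 15.6, and the Zfp genes with under 3 C2H2 matches at 14.4, 13.5, 17.4 and 21.7. KRAB genes lay above C2H2 Zfp genes without KRAB letters by 0.40 ± 0.15 on the log2 scale (a ratio of 1.32) and above C2H2 genes without a Zfp name by 0.62 ± 0.16 (a ratio of 1.54). The medians of C2H2 genes without a Zfp name were 14.0, 12.8, 17.9 and 15.5. C2H2 Zfp genes without KRAB letters lay above them by 0.22 ± 0.17, and in starved replicate 2 the sets nearly met (15.6 and 15.5). C2H2 genes without a Zfp name in turn exceeded all other genes by 0.18 ± 0.12. Each of these differences had the same sign in 4 of 4 libraries (4 pairs of sets compared, exact sign-flip permutation p = 0.125 each, the smallest possible, and unchanged by Benjamini-Hochberg adjustment over the pairs, whose p-values are equal).

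**Figure D2:**
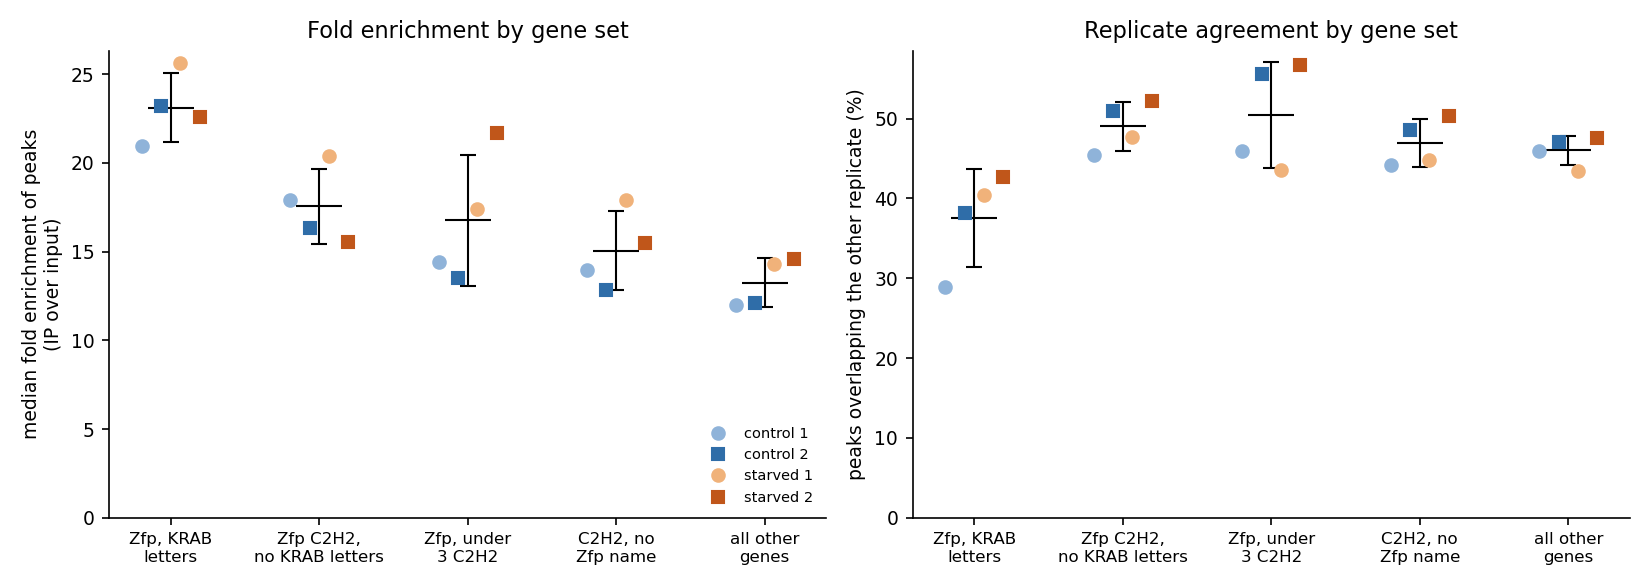
Left, median fold enrichment (IP over input) of the peaks of 5 gene sets, and right, the share of peaks (%) that overlap a peak of the other replicate of the same condition. Points are the 4 libraries, horizontal lines and error bars the mean and SD; Zfp genes with KRAB letters had the highest fold, 21.0 to 25.6, and the lowest agreement, 28.8% to 42.7%.

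Replicates agreed on Zfp peaks about as often as on other peaks when peaks were counted. A peak of the other replicate overlapped 40.2%, 47.8%, 44.96% and 49.6% of the Zfp peaks in control replicates 1 and 2 and starved replicates 1 and 2, and 45.9%, 47.1%, 43.5% and 47.7% of the other peaks. The mean difference was -0.404 ± 3.59 percentage points, and the Zfp value was higher in 3 of 4 libraries (exact sign-flip permutation p = 1). Control replicate 1, which had the most Zfp peaks, was the exception. The 2 lists of a condition were each scored against the other, so their values are not independent. The SDs and sign-flip tests of agreement nevertheless treat the 4 lists as independent. Without either control replicate the difference, then from the starved pair alone, was 1.70 points. Among peaks with a deposited false discovery rate under 20% agreement was lower for Zfp genes, with a mean difference of -6.48 points, and among peaks of at least 10-fold enrichment the difference was -2.92 points (exact sign-flip permutation p = 0.125 each).

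Measured in bases, agreement on Zfp peaks was lower. The Jaccard index (shared bases over all bases covered) of the control pair was 0.210 for Zfp peaks and 0.288 for other peaks, and that of the starved pair was 0.259 and 0.296. The 4 pairs made of a control and a starved library gave 0.202 to 0.261 for Zfp genes and 0.262 to 0.299 for other genes. For Zfp genes both pairs of the same condition thus lay within the range of the pairs of different conditions, and the same held for other genes. In regions with a peak in both replicates the fold also differed more for Zfp genes, with a median absolute log2 difference of 0.96 against 0.74 in control cells (128 Zfp regions) and 1.16 against 0.88 in starved cells (119 Zfp regions). More than 2-fold apart were 48.4% and 54.6% of these Zfp regions, against 37.6% and 44.9% of the others.

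Counted in peaks, agreement was lowest in the KRAB genes. Their peaks overlapped the other replicate in 28.8%, 38.2%, 40.5% and 42.7% of cases, against 45.4%, 50.9%, 47.7% and 52.1% for C2H2 Zfp genes without KRAB letters. The gap of -11.5 ± 4.05 percentage points had the same sign in all 4 libraries, and against C2H2 genes without a Zfp name it was -9.40 ± 4.64 (exact sign-flip permutation p = 0.125 each). Here too both lists of a condition enter the same comparison, so the 4 values are not independent.

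Zfp peaks lay in coding sequence more often than other peaks. Of the Zfp peaks that could be placed on the longest coding transcript, 61.7%, 62.2%, 67.7% and 64.8% had their centre in coding sequence in control replicates 1 and 2 and starved replicates 1 and 2, against 51.1%, 52.8%, 53.1% and 51.9% in other genes. The difference was 11.9 ± 2.33 percentage points (7.40 among peaks of at least 10-fold enrichment), and both starved values lay above both control values for Zfp genes (exact sign-flip permutation p = 0.125 for Zfp against other genes, and exact permutation p = 0.333 for starved against control). In 3′ UTRs the shares were 32.0 ± 2.61% and 43.5 ± 1.23%, and within 100 nt of the stop codon 7.79 ± 1.48% and 12.4 ± 0.332%. The last exon held 76.4 ± 2.03% of the Zfp peaks and 58.7 ± 1.56% of the others. The exon under a Zfp peak was also longer, with a median of 2921 ± 113 nt against 1338 ± 49.3 nt. All of these differences had the same sign in 4 of 4 libraries (exact sign-flip permutation p = 0.125 each). C2H2 genes without a Zfp name had even more coding peaks, at 68.1 ± 0.853%. Their 3′ UTR share was 29.2 ± 1.09%, and the exon under their peaks was longer still, with a median of 3313.5 ± 210 nt.

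Within the coding sequence of C2H2 Zfp genes, peaks fell before the finger array more often than its length gives. The array, from the first to the last C2H2 match, held 52.8 ± 0.981% of the 613 coding peaks (a count that happens to equal that of the merged regions) and took 60.3 ± 0.442% of the coding length of the same genes. The difference was -7.48 ± 1.04 percentage points, negative in 4 of 4 libraries (exact sign-flip permutation p = 0.125). The stretch before the array held 38.2 ± 2.31% of the peaks and 31.4 ± 0.850% of the length. In KRAB genes it held 51.5 ± 3.44% of the peaks and 42.0 ± 1.02% of the length. Over all C2H2 Zfp genes the median fold was 24.0, 18.1, 25.7 and 20.8 before the array and 15.6, 16.7, 21.9 and 15.5 within it. After the array, with 55 peaks in all, it was 14.8, 10.3, 26.5 and 22.1, which was above both other parts in the starved libraries. The order turned within the subsets, in control replicate 2 for genes without KRAB letters (15.2 before and 16.4 in the array), and in control replicate 2 (20.6 and 20.8) and starved replicate 1 (24.3 and 26.0) for KRAB genes. C2H2 genes without a Zfp name also had fewer peaks in the array than its length gives, by 8.31 ± 2.67 points.

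**Figure D3:**
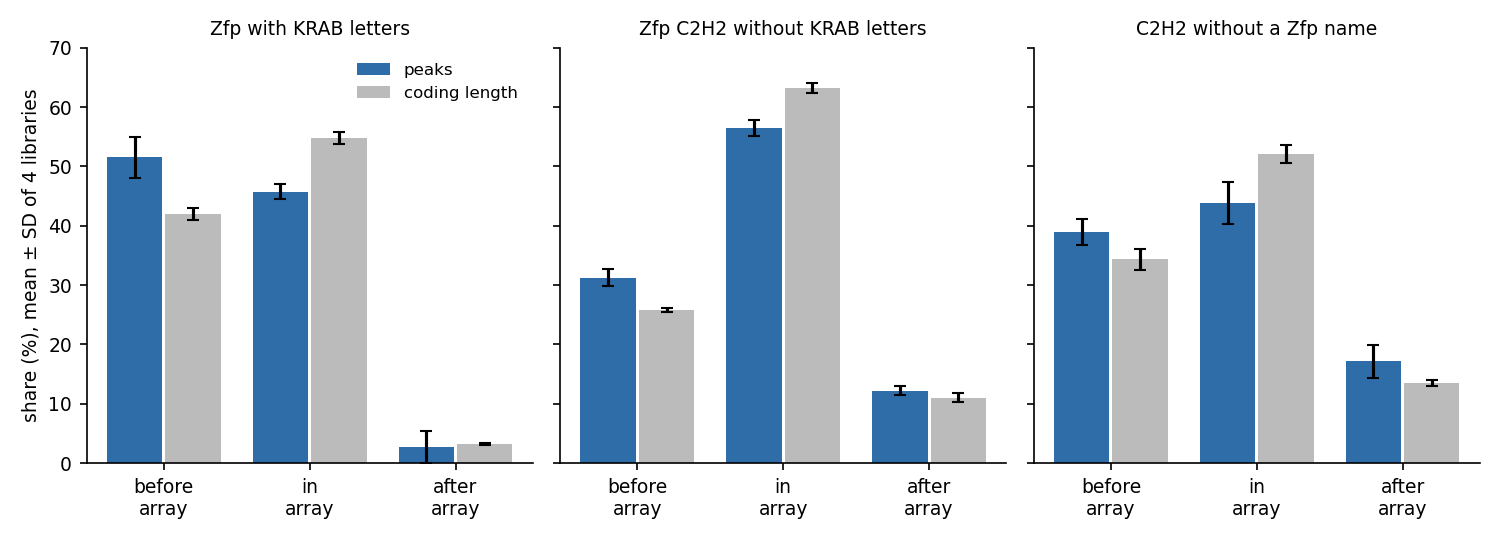
Share (%) of coding m6A peaks with their centre before, in or after the C2H2 finger array, beside the share of coding length that each part takes in the same genes. Bars are the mean and error bars the SD over 4 libraries; in each of the 3 gene sets the array held a smaller share of peaks than of length, 45.8% against 54.8% in Zfp genes with KRAB letters.

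The finger arrays were poor in the motif. Over the 240 C2H2 Zfp genes with a peak, 299 kb of array with 2756 fingers held 2.43 GGAC per kb, and the other 192 kb of their coding sequence held 4.79 per kb. The commonest place of a GGAC in the arrays was 8 nt before the end of the last histidine codon of a finger, with 95 of 727 matches (13.1%), where the next commonest place held 31. At the 2146 finger ends followed closely by another finger, 80 (3.73%) had GGAC at this place and 240 (11.2%) had GAAC. A peak of at least 1 library covered 27.5% of the former and 28.8% of all other finger ends. The finger ends below, from the pair of genes ranked highest by the number of libraries whose peaks covered such a GGAC, then by the number of such ends, show for each gene an end with GGAC at this place and an end without it. Each runs 30 nt from within the last part of the finger, where the final histidine codon ends after 12 nt, into the linker.
Zfp26 finger 14 of 22, chr9:20437143-20437172, minus strand: ataaGGACacacactggtgaaaggccctat
Zfp26 finger 9 of 22, chr9:20437563-20437592, minus strand: tttcgaattcacactggaataaaaccatac
Zfp248 finger 2 of 7, chr6:118429328-118429357, minus strand: cagcGGACacacacgggagagaaaccctat
Zfp248 finger 1 of 7, chr6:118429412-118429441, minus strand: cagagaacacacaccggagagaaaccgtat

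Peaks of Zfp genes held fewer GGAC than peaks of other genes, and so did the rest of their transcripts. The density was 3.92 ± 0.184 per kb in Zfp peaks and 5.07 ± 0.0932 per kb in other peaks, lower in 4 of 4 libraries (exact sign-flip permutation p = 0.125). The uncovered parts of the same transcripts held 3.07 and 3.94 per kb. The ratio of peaks to rest was therefore alike, at 1.28 and 1.29, with a difference of -0.00878 (exact sign-flip permutation p = 1), and with DRACH in place of GGAC it was 0.0497 in the other direction.

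This average hid a split within the Zfp genes. In those with under 3 C2H2 matches the ratio was 1.75 to 2.26 in the 4 libraries, at 6.17 to 7.08 GGAC per kb of peak. In C2H2 Zfp genes without KRAB letters it was 1.19, 1.07, 1.15 and 1.09, and in KRAB genes 1.22, 0.942, 1.27 and 1.32. All other genes outside the Zfp and C2H2 sets stood at 1.26, 1.28, 1.30 and 1.29, so that the C2H2 Zfp genes without KRAB letters lay below them in each library, while KRAB genes lay below them in 3 libraries and above in starved replicate 2. C2H2 genes without a Zfp name, which also have arrays, stood at 1.41 to 1.49.

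**Figure D4:**
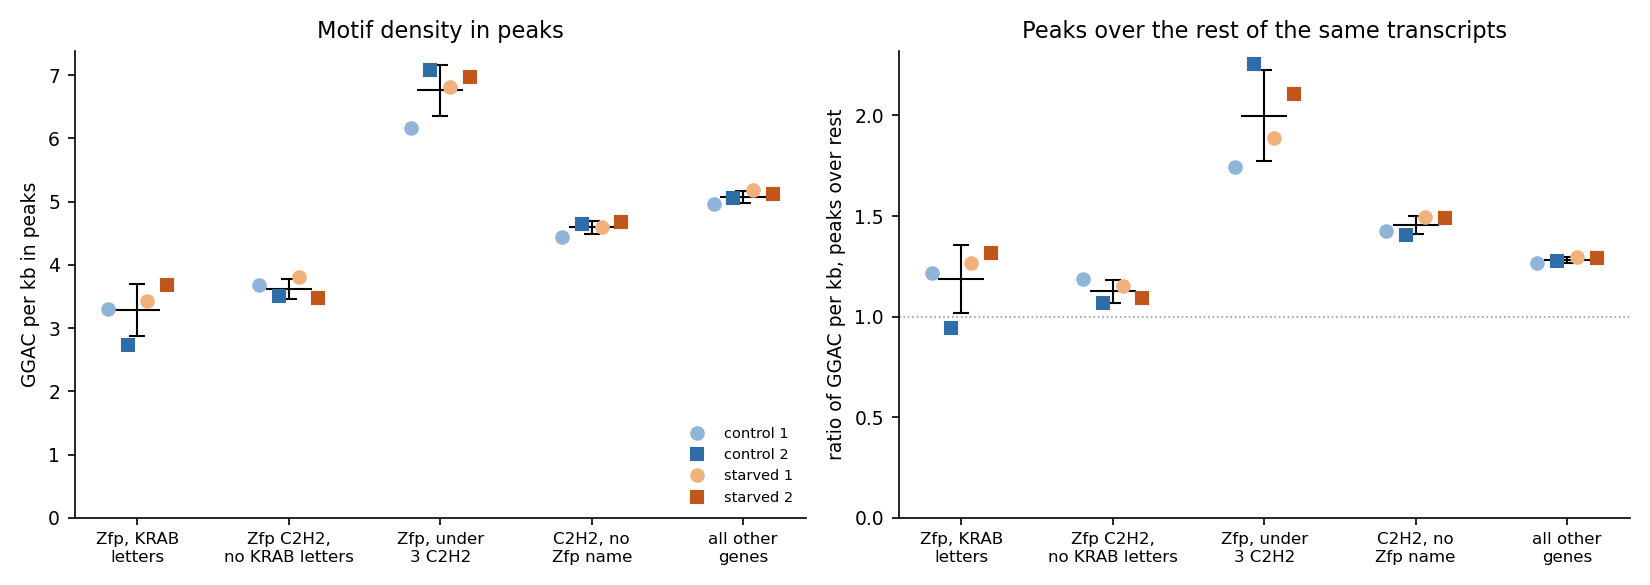
GGAC per kb in m6A peaks (left) and the ratio of that density to the density in uncovered parts of the same transcripts (right) for 5 gene sets. Points are the 4 libraries, horizontal lines and error bars the mean and SD, and the dotted line marks a ratio of 1; both sets of C2H2 Zfp genes had the lowest means in both plots, though KRAB genes in starved replicate 2 had a ratio of 1.32 against 1.29 for all other genes, and Zfp genes with under 3 C2H2 matches had the highest means.

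Whether starvation changed the methylation of Zfp mRNAs was asked in 3 ways. The median log2 fold enrichment of Zfp peaks was 0.19 higher in starved than in control libraries, and that of other genes was 0.26 higher (exact permutation p = 0.333 each, n = 2 per group). The difference between these changes was -0.07 (exact permutation p = 0.667). The sign was the opposite in the 62 Zfp regions found in every library. Their median folds were 23.7 and 24.5 without and 24.4 and 19.7 with starvation, a log2 change of -0.14 (exact permutation p = 0.667), while 2195 such regions of other genes had 18.01 and 16.5 without and 20.2 and 20.1 with starvation. Starved replicate 2 alone lay below the controls.

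In presence and absence, Zfp regions followed the background. Peaks in both starved libraries and neither control library were found in 17 of 613 regions (2.77%), where 3.20% of all regions had this pattern. Peaks in both control libraries and neither starved library were found in 25 regions (4.08%), against 4.15% of all regions. Most regions, 351 of 613 (57.3%), were seen in a single library, and 119, 81 and 62 regions were seen in 2, 3 and 4 libraries.

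Among the 62 regions found in every library, 10 (16.1%) had both starved folds above both control folds, against 22.9% of all such regions, and 13 (21.0%) had both below, against 18.0%. The other 39 had overlapping values. These shares count few regions, and an mRNA can carry m6A where no peak was called.

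**Figure D5:**
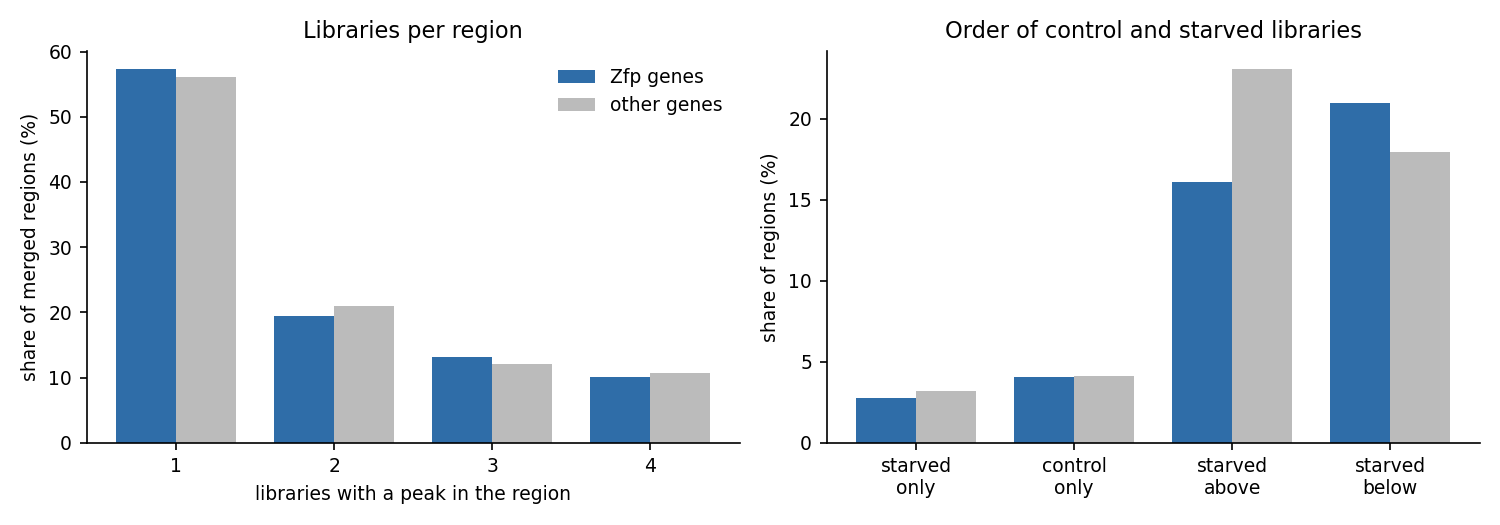
Left, share (%) of merged regions found in 1, 2, 3 or 4 libraries, and right, share (%) called only in both starved or only in both control libraries (of all regions), or with both starved folds above or below both control folds (of regions found in all 4). Zfp genes are beside all other genes; 57.3% of Zfp regions came from a single library, and 16.1% against 23.1% had the starved values above.

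The regions with the widest gap between conditions were as follows. In Zfp365, whose product is known from genome stability and neuron development, a coding region (chr10:67909201-67909959) had folds of 8.24 and 7.15 in control and 42.6 and 57.1 in starved cells. In Zfp652, a transcriptional repressor, a region over the start of the coding sequence (chr11:95749000-95750147) had 22.3 and 11.3 in control and 70.9 and 48.4 in starved cells. Both showed a mean log2 change above that of the other 4 regions of this kind, 2.68 and 1.89. In Zfp111 a region joined from 6 peaks (chr7:24198045-24200042) had highest folds of 23.6 and 36.6 in control and 58.7 and 65.9 in starved cells. These need not come from the same place in the region. Zfp407 had 24.6 and 43.1 against 55.9 and 78.2, and Zfp871 had 11.9 and 4.48 against 16.1 and 19.2. In Zfp276 the groups stood apart by little, with 41.0 and 42.4 against 54.2 and 49.2.

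Lower values in starved cells were as wide. In Zfp608, a paralog of Zfp609 known from T cell development, a coding region had 155 and 192 in control and 21.6 and 26.4 in starved cells, a log2 change of -2.85. Zfp830, which takes part in pre-mRNA splicing and genome stability, had 96.3 and 101 in control and 24.5 and 8.12 in starved cells (chr11:82764345-82765584), a change of -2.81. The replicates of each condition were close in Zfp608, whereas the starved values of Zfp830 differed from each other by more than its control values. Zfp397 had 39.3 and 62.9 in control against 19.97 and 11.5 in starved cells, and Zfp334 had 23.8 and 14.0 against 7.45 and 7.32. In Zfp809, a KRAB protein that silences retroviruses through their primer binding site, the control folds were 15.2 and 15.6 and the starved folds 9.89 and 6.97. In Zfp521 control replicate 1 stood at 35.0 and replicate 2 at 13.4, and both starved values were at 9.02 and 9.01. These regions were ranked by this very gap, so no test was made of them.

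The sequences below come from 3 of these regions and show only a part of each. They were placed by the strongest peak of each library, as near the centre of the part these peaks share as coding sequence allowed. The Zfp652 window therefore opens at the start codon. As above, each is 100 nt of GRCm38 coding sequence on the transcript strand with GGAC in capitals.
Zfp365, chr10:67909590-67909689, minus strand: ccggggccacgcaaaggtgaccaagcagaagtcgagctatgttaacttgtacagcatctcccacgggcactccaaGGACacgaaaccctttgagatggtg
Zfp652, chr11:95749251-95749350, plus strand: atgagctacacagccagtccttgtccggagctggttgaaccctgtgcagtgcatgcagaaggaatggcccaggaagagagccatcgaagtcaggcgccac
Zfp830, chr11:82765248-82765347, plus strand: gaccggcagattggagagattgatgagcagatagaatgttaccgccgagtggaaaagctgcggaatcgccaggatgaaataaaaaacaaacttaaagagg

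A GGAC was present in the Zfp365 window only, and DRACH occurred 4, 1 and 2 times in the windows of Zfp365, Zfp652 and Zfp830. Windows of Zfp111, Zfp334 and Zfp809, made in the same way and not shown, held no GGAC. DRACH occurred 2, 1 and 0 times in them. Zfp365 had 0 C2H2 matches and Zfp830 had 1, and the Zfp652 window lay before its array.

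The regions called in 1 condition only were led by Zfp128 (49.4 and 43.3 in the starved libraries) and Zfp54 (29.9 and 457), followed by Zfp688, Zfp408, Zfp217 and Zfp426. Zfp217, which is known to bind METTL3 and restrain m6A deposition, had 19.0 and 98.5 there. In 4 of these 6 regions the second starved library was more than 2-fold above the first. Those called in the control libraries only were led by Zfp677 (92.9 and 62.1), Zfp846 (140 and 56.7) and Zfp691 (74.4 and 42.3), followed by Zfp354c, Zfp37 and Zfp606. The region of Zfp846 was centred 20 nt after the stop codon and that of Zfp691 8 nt before it.

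The role lists that follow were chosen with earlier results of these data known. Their shares of genes with a peak are therefore description and no test. By role, the CCCH genes of mRNA decay had weak peaks. Zfp36 (tristetraprolin) had peaks in the control libraries only, up to 6.67-fold and 20.7-fold. Zfp36l1 had peaks of up to 6.34-fold in control replicate 1 and 9.77-fold and 13.5-fold in the starved libraries. The 13.5-fold peak was a separate region called in starved replicate 2 only. The region shared by these libraries had 6.34, 9.77 and 8.68. Zfp36l2 reached 5.43-fold in control replicate 2 and 4.55-fold in starved replicate 1, in different regions, and Zfp36l3 had no peak. Their 10 peaks had a median fold of 6.51, and no region was found in all 4 libraries.

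Of 10 KRAB genes known from imprint or retroelement control, 8 had a peak, where 67.3% of RefSeq Zfp genes had one, and Zfp819 and Zfp932 had none. Their 26 peaks had a median fold of 16.03. Zfp445 and Zfp809 had peaks in every library. Zfp568, which represses a placental transcript of Igf2, had peaks of up to 20.9-fold and 13.9-fold in control libraries and 57.5-fold in starved replicate 1. Zfp57, the imprint guardian, had a single peak in control replicate 2 (13.7-fold) and in starved replicate 1 (15.1-fold), in different regions. Zfp534, Zfp947 and Zfp961 had a peak in starved replicate 2 only, at 175-fold, 56.0-fold and 87.7-fold, and the Zfp534 region had 9 copies in the genome and that of Zfp947 had 3. Zfp708 had one in control replicate 1 only, at 37.8-fold. So 4 of the 8 genes were seen in a single library, as were 28.1% of all Zfp genes with a peak.

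Of 9 factors of mesenchymal, adipocyte or limb fate 7 had a peak, close to the 67.3% of RefSeq Zfp genes, with 61 peaks and a median fold of 13.2. Zfp521, a brake on fat cell commitment, had 4, 2, 4 and 4 peaks in the 4 libraries, and Zfp516, an activator of brown fat genes, had 2, 5, 6 and 3. Zfp423, the determinant of preadipocytes, had a single peak in control replicate 2, at 46.6-fold. Zfp503, a repressor of the NET family, had peaks in every library at up to 41.0, 25.9, 20.3 and 26.2. Its relative Zfp703 had peaks in starved replicate 1 only. Zfp467 and Zfp638 had none.

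Of 13 stem cell and chromatin regulators 11 had a peak, beside 67.3% of RefSeq Zfp genes, with 81 peaks and a median fold of 13.5. Zfp42 (Rex1), a marker of pluripotent cells, and Zfp410 had none. Zfp292 held 3 regions with a peak in all 4 libraries, and its highest folds in any region were 50.4, 37.8, 26.0 and 93.7. Zfp462, a large protein with 33 C2H2 matches, had 7 regions and no region in all 4 libraries. Zfp687, Zfp592 and Zfp532, partners in a ZMYND8 complex, reached 9.14, 22.9 and 8.27 at most.

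Of 12 genes of RNA, ribosome and ubiquitin pathways 11 had a peak, beside the same 67.3%, and Zfp385b had none. Their 72 peaks had a median fold of 10.97. Zfp598, the ubiquitin ligase of collided ribosomes, had peaks in the control libraries only, at up to 4.53 and 12.8, in regions each called in a single library. Zfp622, a factor of large subunit maturation, had peaks at up to 4.39, 24.0, 38.5 and 29.2, but these came from different regions. The 29.2 of starved replicate 2 was a 5′ UTR region called in that library only. A coding region had 3.58, 24.0 and 38.5 in control replicates 1 and 2 and starved replicate 1. It had no peak in starved replicate 2. Zfp346, which binds double-stranded RNA, had a 3′ UTR region with both starved values below both control values, 49.2 and 9.41 in control and 5.05 and 6.42 in starved cells. Zfp106, an RNA-binding protein, had 4, 3, 2 and 3 peaks.

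The genes with most regions were Zfp704 with 9, Zfp451 and Zfp609 with 8, Zfp608, Zfp318 and Zfp462 with 7, and Zfp516 and Zfp518a with 6. The 13 peaks of Zfp704 were all in its 3′ UTR, spread from 308 to 9670 nt after the stop codon in a last exon of 11889 nt, and no region was found in all 4 libraries. The 13 peaks of Zfp318, known for its part in IgD expression, were by contrast all in coding sequence.

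Zfp451, a SUMO ligase, had 4 regions with a peak in all 4 libraries. Of its 8 regions 7 (chr1:33793396-33803613) lay outside the longest coding transcript. They fell in the 11478-nt last exon of another coding transcript in GENCODE M21, Zfp451-202 (chr1:33792136-33803613, minus strand). The strongest region shared by all libraries, chr1:33801588-33803157, had folds of 32.5 and 42.9 in control and 56.8 and 29.4 in starved cells and was centred in the coding part of that transcript, and the region next to it, chr1:33803230-33803613, had 21.97 and 14.2 in the starved libraries and no peak in control. Zfp609, which works with the cohesin loader and Integrator in neural progenitors, had 5 regions in coding sequence and 3 in its 3′ UTR, of which 1 was found in all 4 libraries, at 12.96, 20.5, 14.7 and 4.53.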

How the data were processed

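MeRIP-seq peak lists of 4 IP libraries from MEFs were analysed. According to the methods of the study, mRNA was immunoprecipitated with an m6A antibody, and the authors trimmed with Cutadapt, mapped to mm10 with HISAT2 (2.0.4 in the submitters' processing notes), called peaks per IP library over its input with MACS2, and kept peaks overlapping mRNA exons. The deposited fold enrichment is the ratio of IP signal to the local background of the input. The deposited score is minus 10 times log10 of the p-value, with a limit at 3100 that hides differences among the strongest peaks, and the authors also deposited a false discovery rate in percent, of which the lowest in the 4 lists was 5.56%, so that no peak would pass 5%. The scale of the score and a rate in place of a log q-value are those of MACS releases before MACS2, and which release made the lists was not settled. A further deposited table, the authors' own diffReps comparison with fold changes and p-values, was not used. The files give no reads, so no depth, counting error or limit of detection could be computed. Depth and input coverage move the number of peaks and the fold of weakly expressed genes.

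Starts, counted from 0 in the lists, were raised by 1. Peaks sharing 1 bp were merged into regions, and a region's value is its highest fold in a library. Peaks were placed by their centre on the longest coding RefSeq transcript (GRCm38.p6), where 56 Zfp peaks (4.96%) and 10.9% of other peaks could not be placed. C2H2 fingers were matches of C, 2 to 4 residues, C, 12 residues, H, 3 to 5 residues, H. Copies were sought with blastn 2.17.0. Libraries were the unit of replication, in two-sided exact permutation tests (starved against control) and exact sign-flip tests (Zfp against other genes), and medians are per library. Python 3.11.15 with pandas 2.3.3 was used. The fold difference, the region patterns and the coding share were tested on simulated peak lists. The simulated transcripts had no fingers, so finger matching and placement in the array were not tested. Members, role lists and tests were chosen with earlier results of these data known. Named were genes of the role lists with a peak, the 8 genes with most regions, the 6 regions in all 4 libraries with the highest lowest fold, and up to 6 regions of each pattern between conditions, by lowest fold or by gap. The alternatives were other sets of peaks, gene symbols, overlaps and motifs, and each library left out. Replicate numbers did not pair the libraries: the deviations of same-numbered libraries had a correlation of -0.02 over 2257 regions.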

Additional observations from a re-analysis of the deposited data

How the results depend on the processing

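Every difference between Zfp and other genes in fold enrichment, peaks per gene, coding share and exon length kept its sign under all alternatives run. So did the difference between the array's share of Zfp coding peaks and its share of coding length. The replicate block, which takes differences within replicate numbers, gave the same -0.162 points for the share of Zfp peaks (exact sign-flip p = 1), 0.19 for the change in Zfp fold and -0.07 for its difference from other genes (exact sign-flip p = 0.5 each), and changed no call. The starved minus control change in the log2 fold of Zfp peaks turned to -0.025 with a false discovery rate under 20%, to -0.031 with as many best-scoring peaks from each library, to -0.10 with folds of at least 10 and to -0.14 in regions found in all 4 libraries (the last chosen after seeing the data). The cause was not tested. The difference in replicate agreement was 0.496 points without the Zfp regions found more than once in the genome (chosen after seeing the data). Regions of other genes were not searched for copies. The GGAC ratio difference was 0.0497 with DRACH.

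With a false discovery rate under 20%, 11 regions were called in starved cells only, 11 in control cells only, and 5 each lay above or below in starved cells. With folds of at least 10, 13 were called in control only, 5 lay above and 7 below. These settings use fewer peaks.

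With each library left out, the ranges were -0.398 to 0.0731 points for the share of peaks, 0.09 to 0.28 for the change in Zfp fold, -0.179 to 0.033 for its difference from other genes, -2.51 to 1.70 points for agreement, and -0.0399 to 0.0181 for the GGAC ratio. Counts of regions, which then need only 1 library of a condition, were 32 to 105 (starved only), 38 to 135 (control only), 21 to 30 (above) and 27 to 31 (below).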

Other observations

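Regions with copies gave repeated values. Under the name Zfp781 the lists held a pair of regions on chromosome 10, chr10:81742821-81743128 and chr10:81901911-81902218, each with 3 copies in the genome. The first had folds of 29.3 in control replicate 2, 22.7 in starved replicate 1 and 13.9 in starved replicate 2, and the second had 28.1, 21.7 and 14.1 in the same libraries, so that the copies kept the same order and were close in each library. Neither had a peak in control replicate 1, where the paired regions of Zfp433 nearby had folds of 17.6 and 19.6 and no peak elsewhere. Such pairs count as separate regions in the totals. The Zfp808 and Zfp825 regions, with 4 copies each, were called in control replicate 1 only, at 66.8-fold and 14.4-fold.

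Zfp652 had further regions far downstream of the one over its start. A 3′ UTR region had folds of 28.0 in control replicate 2 and 7.63 and 25.4 in the starved libraries. A pair of regions, at 4.10-fold and 26.4-fold in starved replicate 2 only, lay in the 8815-nt last exon of another GENCODE M21 transcript, Zfp652-202, after its coding sequence. The gap between conditions described for the start of the coding sequence was thus not shared by all regions of this gene.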
